A study of Mus musculus with 9 samples.

Results

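The genes described here encode the entry of pyruvate into mitochondria and the tricarboxylic acid cycle, 33 genes chosen by symbol for their role. They were chosen with earlier results of these data known. All 33 symbols were found, each as 1 record, among the 29237 genes of the deposited table. RNA was sequenced from hearts of wild-type C57BL/6 mice of 8 to 12 weeks in 3 groups of 3 libraries. The labels name these groups control, which had no stated treatment, DOX, the doxorubicin model of dilated cardiomyopathy, and TPTN, the treated group. Dose, route, day and the identity of TPTN are not stated, nor whether TPTN mice also received doxorubicin. The labels do not say whether each library is another mouse, and every p-value therefore reflects the spread among these samples alone, which may be technical.

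The heart draws most of its energy from oxidation in mitochondria, where fatty acids, pyruvate and ketone bodies all end as acetyl-CoA. Pyruvate crosses the inner membrane through a carrier and is turned into acetyl-CoA by the pyruvate dehydrogenase complex, which kinases switch off by phosphorylation and phosphatases switch on again. Acetyl-CoA then enters the cycle, whose dehydrogenases supply NADH to the respiratory chain. Transaminases and malate dehydrogenases on both sides of the inner membrane form the malate-aspartate shuttle, which carries reducing equivalents from the cytosol into the mitochondrion.

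The samples carried the markers of heart muscle. All 6 cardiomyocyte markers examined were detected, and their summed level was 9108 to 10179 FPKM (read pairs relative to transcript length and to the library's total) in control, 10238 to 11725 in DOX and 10656 to 10944 in TPTN. Liver markers summed to at most 0.352 FPKM. Mitochondrially encoded genes took 49.8 to 50.9% of the FPKM sum in control, 44.7 to 46.2% in DOX and 48.1 to 48.7% in TPTN, and a larger share of the sum was left to all other genes in DOX. A rough depth was estimated from the most frequent low values. It was 23.7 to 25.4 M read pairs in control, 19.3 to 20.2 in DOX and 20.2 to 22.1 in TPTN. Few low values were whole multiples of the unit behind this estimate, so a difference in depth between groups is not established. The part of the mitochondrial share and of depth in the results was not tested, except for the scalings given further on. In the DOX replicate 1 library the 4 atrial myocyte markers summed to 2444 FPKM, against 51.4 to 289 in the other 8 libraries.

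Few genes passed the test, among these 33 and among all genes tested. In DOX against control, 0 of the 33 passed a Benjamini-Hochberg adjusted p of 0.05 in limma, where 2.63% of the 12500 genes tested did. At an unadjusted p under 0.05, limma gave 6 of the 33 higher (14.6% of all genes tested) and 3 lower (3.47% of all). Among those 6 is Pdk3, which only DOX brought over the expression minimum of 0.5 FPKM, so that the filter favours its high value there. In TPTN against DOX and in TPTN against control only 1 of the 33 passed, Got1, and it was lower in TPTN both times (of all genes tested, 3.26% passed in TPTN against DOX and 2.46% were lower; 0.72% passed in TPTN against control and 0.384% were lower). At an unadjusted p under 0.05, limma gave 1 of the 33 higher (7.78% of all) and 10 lower (12.9%) in TPTN against DOX. Pdk3 is among those 10, with the same limit. In TPTN against control, limma gave 1 higher (9.02% of all) and 3 lower (4.12%) at that p. Without the DOX replicate 1 library, 0 of the 33 passed in DOX against control, and Got1 alone passed in each of the others. These 2 comparisons share the TPTN libraries and are not independent. In bulk tissue, fewer cells of a type and less RNA per cell cannot be told apart.

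The intervals were narrow enough to say how large a change could have been. For 32 of the 33 genes the 95% interval of the change, not adjusted for the number of genes, lay inside 1.5-fold in either direction in each of the 3 comparisons. Among all genes tested 89.0% did so in DOX against control, 88.4% in TPTN against DOX and 90.3% in TPTN against control. The exception was Pdk3 in the first 2 comparisons and Idh1 in TPTN against control. For citrate synthase, Cs, which joins acetyl-CoA to oxaloacetate, the interval in DOX against control was -0.09 to 0.15 on the log2 scale, and for Pdha1 it was -0.19 to 0.06. Scaled to the sum of FPKM that leaves out mitochondrial genes and their nuclear copies, 30 of the 33 lay inside 1.5-fold in DOX against control (90.0% of all genes), 31 in TPTN against DOX (88.3%) and 32 in TPTN against control (90.5%). Pdpr was then outside in the first and second of these, and Idh1 in TPTN against control and DOX against control. Changes are given throughout on the log2(FPKM + 1) scale, which understates those of genes with low FPKM and narrows their intervals. For Pdp2 in TPTN against control, the change was 0.28 (SE 0.10) on this scale and 0.38 (SE 0.14) with a pseudocount of 0.1. Genes inside 1.5-fold were not counted with that pseudocount.

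**Figure D1:**
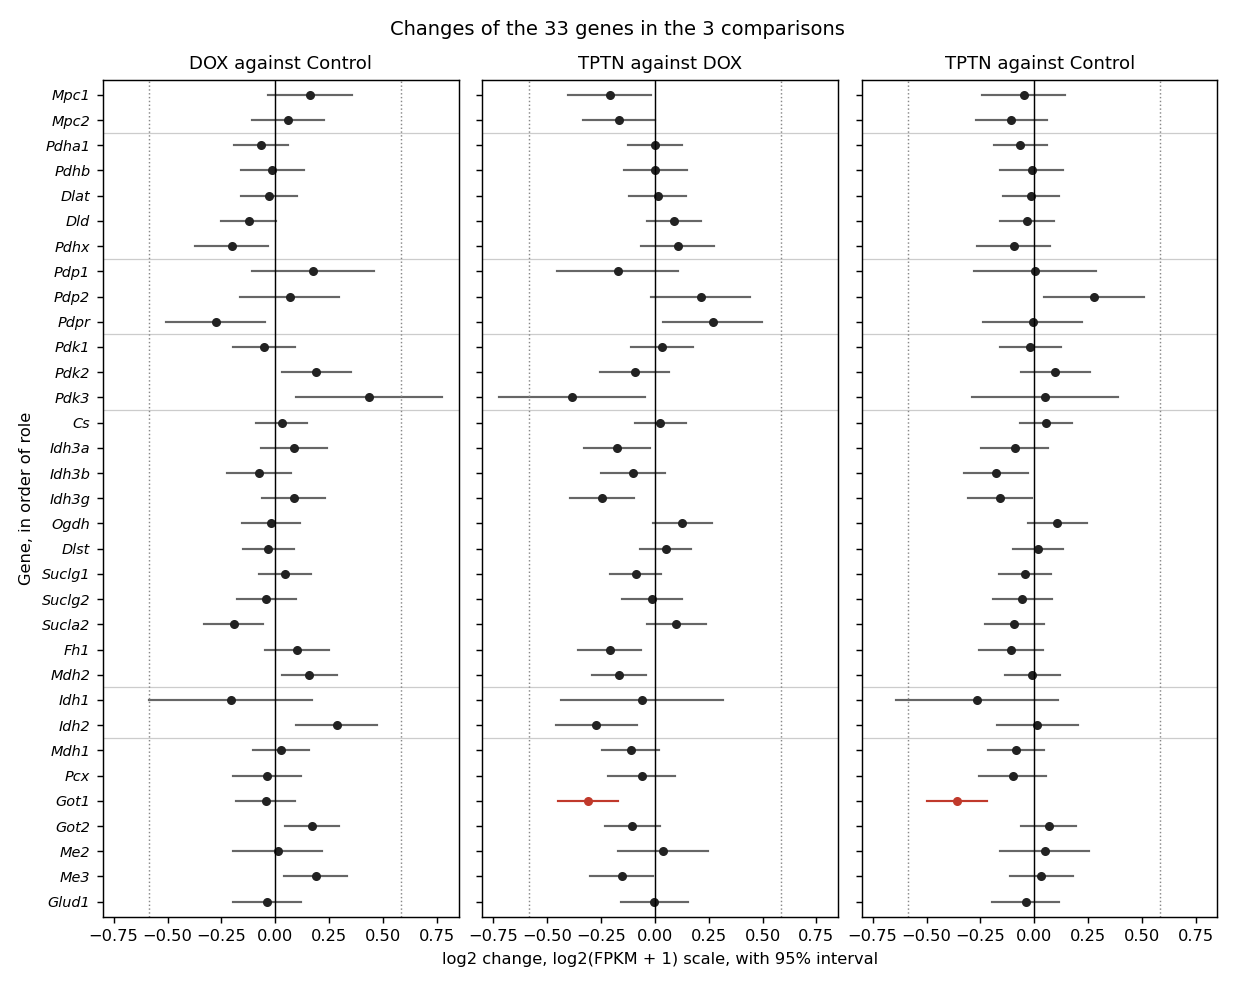
Change of each of the 33 genes in the 3 comparisons, on the log2(FPKM + 1) scale (x axis), with its 95% interval from limma, the genes on the y axis in order of role. Red marks an adjusted p under 0.05, which only Got1 reached, at -0.31 and -0.36 in the TPTN comparisons, and dotted lines mark 1.5-fold.

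Levels differed widely between these genes on the FPKM scale, which is per transcript length. Mdh1, cytosolic malate dehydrogenase, had the highest mean over the 9 libraries (489 FPKM), followed by Idh2 (458), Got1 (261), Ogdh (246) and Pdha1 (223). The lowest were Pdk3 (0.558), Me2 (0.864) and Pdp2 (2.38). The coefficient of variation within groups ran from 2.27% (Cs) to 7.92% (Idh2) among the 10 most abundant genes. Over all 33 it was smallest for Dlst (1.26%) and largest for Idh1 (17.5%) and Pdk3 (38.4%).

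**Figure D2:**
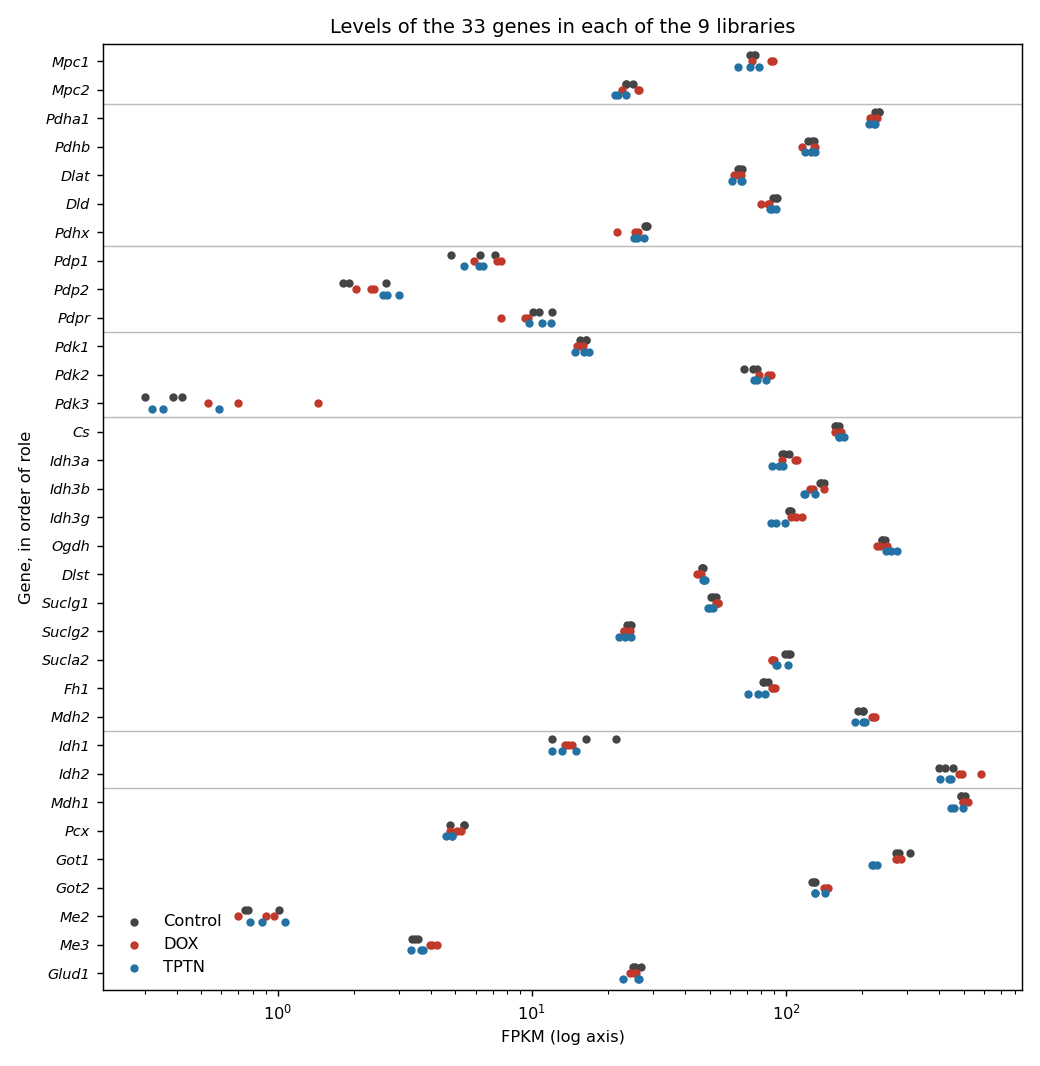
FPKM of each gene in each of the 9 libraries (points, log axis), coloured by group and ordered by role. The groups overlap in every comparison for 13 of the 33 genes and are apart in at least 1 for the other 20. How many of all genes tested are apart in at least 1 was not computed. In DOX against control, 17.7% of all genes lie wholly above and 5.1% wholly below. These shares are 10.4 and 14.1% in TPTN against DOX, and 15.2 and 6.03% in TPTN against control. Got1 sits lower in TPTN, and Pdk3, the least abundant gene, is spread from 0.299 to 1.43 FPKM.

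The mitochondrial pyruvate carrier is made of Mpc1 and Mpc2. Mpc1 stood at 74.6, 72.4 and 75.5 FPKM in the control libraries, 73.8, 87.5 and 88.6 in DOX hearts and 64.9, 78.4 and 72.3 in TPTN hearts (log2 change -0.21, SE 0.09, limma adjusted p = 0.206 for TPTN against DOX). DOX replicate 1 was at the control level, and the groups overlapped in each comparison. Without TPTN replicate 1 the estimate was -0.14. Mpc2 stood at 25.0, 23.4 and 23.4 FPKM in the control libraries, 22.6, 26.1 and 26.4 in DOX hearts and 21.3, 23.4 and 21.7 in TPTN hearts (log2 change -0.11, SE 0.07, limma adjusted p = 0.605 for TPTN against control), and its groups overlapped too. Neither gene passed the threshold in any comparison.

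The pyruvate dehydrogenase complex has a decarboxylating enzyme (Pdha1 and Pdhb), a transacetylase (Dlat), a dihydrolipoamide dehydrogenase (Dld) and a binding protein that anchors the latter (Pdhx). The 5 genes had log2 changes of -0.20 to -0.01 in DOX against control, 0.0009 to 0.11 in TPTN against DOX and -0.10 to -0.01 in TPTN against control. Pdhx stood at 27.9, 28.4 and 28.2 FPKM in the control libraries, 21.7, 25.4 and 26.2 in DOX hearts and 26.0, 27.7 and 25.2 in TPTN hearts (log2 change -0.20, SE 0.08, limma adjusted p = 0.191 for DOX against control). All DOX and all TPTN libraries were below all control libraries, with DOX replicate 1 the lowest, and without that library the estimate was -0.12. Dld, which the 2-oxoglutarate dehydrogenase complex also uses, stood at 88.7, 92.4 and 91.8 FPKM in the control libraries, 84.6, 85.8 and 79.9 in DOX hearts and 86.6, 91.7 and 88.3 in TPTN hearts (log2 change 0.09, SE 0.06, limma adjusted p = 0.413 for TPTN against DOX). Its DOX libraries were below those of both other groups, and without DOX replicate 3 the estimate was 0.06. The 5 genes summed to 534, 543 and 543 FPKM in the control libraries, 514, 522 and 512 in DOX hearts and 505, 537 and 529 in TPTN hearts, where DOX was wholly below control and TPTN overlapped both. Pdha1, Pdhb and Dlat overlapped between groups in all 3 comparisons.

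Of the enzymes that set the activity of this complex, Pdk1, Pdk2 and Pdk3 are kinases that inactivate it. Pdk2 was the most abundant of them and stood at 68.3, 74.0 and 77.2 FPKM in the control libraries, 87.1, 78.4 and 85.3 in DOX hearts and 76.8, 74.5 and 83.6 in TPTN hearts (log2 change 0.10, SE 0.07, limma adjusted p = 0.633 for TPTN against control). The DOX libraries were all above the control libraries, with TPTN between and overlapping both. Without control replicate 1 or TPTN replicate 3 the estimate was 0.05. Pdk3 stood at 0.419, 0.386 and 0.299 FPKM in the control libraries, 1.43, 0.696 and 0.529 in DOX hearts and 0.320, 0.354 and 0.586 in TPTN hearts (log2 change 0.43, SE 0.15, limma adjusted p = 0.168 for DOX against control). The highest value was that of DOX replicate 1, the library with the atrial markers. Without that library the estimate was 0.24 (limma adjusted p = 0.246), and in TPTN against DOX it went from -0.39 to -0.19 (adjusted p = 0.296). Pdk3 passed the expression minimum of 0.5 FPKM only through DOX (means of 0.368 in control, 0.886 in DOX and 0.420 in TPTN), so the filter favours a high value there and the difference supports nothing. With a pseudocount of 0.1 the estimates were 0.98 and -0.85. Pdk1 lay between 14.8 and 16.7 FPKM in all 9 libraries.

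Pdp1 and Pdp2 are the catalytic subunits of the phosphatase that reactivates the complex, and Pdpr is its regulatory subunit. Pdpr stood at 10.1, 10.7 and 12.0 FPKM in the control libraries, 9.69, 9.39 and 7.54 in DOX hearts and 10.9, 9.77 and 11.9 in TPTN hearts (log2 change -0.28, SE 0.10, limma adjusted p = 0.191 for DOX against control and log2 change 0.27, SE 0.10, limma adjusted p = 0.176 for TPTN against DOX). All DOX libraries were below all libraries of the other groups. Without DOX replicate 3, the lowest, the estimates were -0.18 and 0.17. A transcript record on the opposite strand overlaps Pdpr, at a mean of 1.99 FPKM, and whether counting used strand is not given in the sources used here. Pdp2 stood at 1.80, 2.66 and 1.91 FPKM in the control libraries, 2.32, 2.40 and 2.03 in DOX hearts and 2.60, 2.68 and 3.00 in TPTN hearts (log2 change 0.28, SE 0.10, limma adjusted p = 0.284 for TPTN against control). All TPTN libraries were above all DOX libraries, but control replicate 2 reached the TPTN range. Pdp1 lay between 4.80 and 7.55 FPKM with overlapping groups. The ratio of the summed kinases Pdk1, Pdk2 and Pdk3 to the summed phosphatases Pdp1 and Pdp2 leaves out a further kinase, Pdk4. This ratio was 12.8, 9.27 and 11.5 in the control libraries and 10.8, 9.46 and 12.7 in DOX hearts. In TPTN hearts it was 11.5, 10.2 and 10.7, and the groups overlapped. Pdk4 had means of 125 FPKM in control, 68.4 in DOX and 100 in TPTN, and the ratio with Pdk4 was not computed.

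Among the 11 genes counted as cycle enzymes, 6 had a positive and 5 a negative estimate in DOX against control, with a median of 0.03 and a range of -0.19 to 0.16. In TPTN against DOX, 4 were positive and 7 negative, from -0.24 to 0.13. In TPTN against control, 3 were positive and 8 negative, from -0.18 to 0.11. Their summed level was 1251, 1235 and 1249 FPKM in the control libraries, 1280, 1248 and 1271 in DOX hearts and 1171, 1257 and 1237 in TPTN hearts, and all groups overlapped. Citrate synthase, Cs, lay between 156 and 169 FPKM and Suclg1, the common subunit of succinyl-CoA synthetase, between 49.4 and 54.1.

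Isocitrate dehydrogenase of the cycle, the NAD-linked enzyme, has a catalytic subunit, Idh3a, and the subunits Idh3b and Idh3g. Idh3g stood at 102, 103 and 105 FPKM in the control libraries, 109, 104 and 116 in DOX hearts and 87.0, 99.2 and 91.6 in TPTN hearts (log2 change -0.24, SE 0.07, limma adjusted p = 0.0724 for TPTN against DOX). The TPTN libraries were all below those of the other groups. Idh3b stood at 141, 137 and 136 FPKM in the control libraries, 125, 128 and 141 in DOX hearts and 119, 129.9 and 117 in TPTN hearts (log2 change -0.18, SE 0.07, limma adjusted p = 0.285 for TPTN against control), and the TPTN libraries were all below the control libraries. The gene Nop56 overlaps Idh3b on the opposite strand, at a mean of 4.31 FPKM. Idh3a lay between 88.0 and 111 FPKM, and its groups overlapped.

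Succinyl-CoA synthetase pairs Suclg1 with either Sucla2, which makes the enzyme ATP-forming, or Suclg2, which makes it GTP-forming. Sucla2 stood at 104, 102 and 98.7 FPKM in the control libraries, 87.9, 87.9 and 90.1 in DOX hearts and 92.1, 102 and 91.3 in TPTN hearts (log2 change -0.19, SE 0.06, limma adjusted p = 0.129 for DOX against control). All DOX libraries were below all others, and 2 TPTN libraries were just above DOX while TPTN replicate 2 was at the control level. Suclg2 lay between 22.0 and 24.6 FPKM in all libraries.

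Ogdh, the first enzyme of the 2-oxoglutarate dehydrogenase complex, stood at 238, 239 and 245 FPKM in the control libraries, 249, 228 and 235 in DOX hearts and 247, 258 and 273 in TPTN hearts (log2 change 0.13, SE 0.06, limma adjusted p = 0.272 for TPTN against DOX). TPTN libraries were all above control libraries but overlapped DOX. Its partner Dlst lay between 44.8 and 47.8 FPKM. Fumarase, Fh1, stood at 85.2, 82.2 and 81.5 FPKM in the control libraries, 88.5, 87.8 and 90.9 in DOX hearts and 70.7, 82.8 and 77.6 in TPTN hearts, and its DOX libraries were above all others. Mitochondrial malate dehydrogenase, Mdh2, stood at 201, 192 and 201 FPKM in the control libraries, 221, 218 and 223 in DOX hearts and 187, 204 and 200.1 in TPTN hearts, again with all DOX libraries above the rest. Neither passed the threshold, with adjusted p of 0.11 or more in every comparison by limma.

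The NADP-linked isocitrate dehydrogenases make NADPH instead of NADH, Idh2 in mitochondria and Idh1 in the cytosol. Idh2 stood at 422, 400.4 and 455 FPKM in the control libraries, 481, 495 and 584 in DOX hearts and 402, 438 and 447 in TPTN hearts (log2 change 0.28, SE 0.08, limma adjusted p = 0.105 for DOX against control and log2 change -0.27, SE 0.08, limma adjusted p = 0.105 for TPTN against DOX). All DOX libraries were above all others, with DOX replicate 3 the highest. Idh1 stood at 12.1, 21.4 and 16.4 FPKM in the control libraries, 14.4, 13.4 and 13.8 in DOX hearts and 12.0, 14.9 and 13.1 in TPTN hearts (log2 change -0.27, SE 0.17, limma adjusted p = 0.557 for TPTN against control). Control replicate 2 was the highest and control replicate 1 among the lowest, so the control libraries alone covered nearly the whole range. Without control replicate 1 the estimate was -0.46, and without control replicate 2 it was -0.08.

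Over all 33 genes, 7 had every DOX library above every control library (17.7% of all genes tested did) and 5 had every DOX library below (5.1% of all). The higher ones were Pdk2, Pdk3 (which only DOX brought over the expression minimum), Fh1, Mdh2, Idh2, Got2 and Me3, and the lower ones Dld, Pdhx, Pdpr, Dlst and Sucla2. In TPTN against DOX, 5 lay wholly above (10.4% of all) and 8 wholly below (14.1% of all). In TPTN against control, 3 lay wholly above (15.2% of all) and 4 wholly below (6.03% of all).

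Got1, cytosolic aspartate aminotransferase, was the gene that passed the threshold. It stood at 278, 308 and 271 FPKM in the control libraries, 274, 283 and 272 in DOX hearts and 228, 218 and 221 in TPTN hearts, so that the TPTN libraries lay closely together below all others while control and DOX overlapped. The mean was 286 ± 19.6 FPKM in control, 276 ± 5.87 in DOX and 222 ± 5.27 in TPTN (SD, n = 3 each). It fell by 0.31 on the log2 scale against DOX (95% interval -0.45 to -0.17, limma adjusted p = 0.0308) and by 0.36 against control (-0.50 to -0.22, limma adjusted p = 0.0304). In DOX against control the change was -0.05 (limma adjusted p = 0.765). Got1 catalyses the cytosolic transamination of the malate-aspartate shuttle and is known as a glucocorticoid-responsive gene in liver.

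The direction of Got1 in both TPTN comparisons held in all 18 other settings tried, but the call did not. It passed in 8 of 18 for TPTN against DOX, where adjusted p in limma ranged from 0.0237 to 0.312, and in 7 of 18 for TPTN against control (0.0243 to 0.174). Against DOX it was lost under median ratios (adjusted p = 0.0631), with quantiles made equal (log2 change -0.13, adjusted p = 0.312) and with mitochondrial genes and copies left out of the FPKM sum (-0.18, 0.128). It was also lost without DOX replicate 2 (0.102), DOX replicate 3 (0.0758) or TPTN replicate 1, 2 or 3 (0.0805, 0.0768 and 0.0881). Against control it passed under median ratios (0.0442) and with mitochondrial genes and copies left out of the sum (0.0277). It was lost under quantile normalization (0.0661), in a fit of only the groups compared (0.0655), and without control replicate 2 or 3 (0.103 and 0.0663), DOX replicate 2 or 3 (0.0522 and 0.0538) or TPTN replicate 1, 2 or 3 (0.077, 0.113 and 0.121). With the replicate number as a block it was lost in both (0.0662 and 0.0715), as it was with no filter on low values (0.153 and 0.174).

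Got1 (ENSMUSG00000025190) lies on the minus strand of chromosome 19 from 43499752 to 43524605 in GRCm38 (GENCODE M21). The 250 bases before its RefSeq start, at chr19:43524606-43524855 in GRCm38.p6, lie outside the annotated gene and are shown because Got1 was the only gene of the 33 past the threshold. Capitals mark the motif CCAAT, which nuclear factor Y binds, read on either strand, and the motif AAGGTCA.
Got1: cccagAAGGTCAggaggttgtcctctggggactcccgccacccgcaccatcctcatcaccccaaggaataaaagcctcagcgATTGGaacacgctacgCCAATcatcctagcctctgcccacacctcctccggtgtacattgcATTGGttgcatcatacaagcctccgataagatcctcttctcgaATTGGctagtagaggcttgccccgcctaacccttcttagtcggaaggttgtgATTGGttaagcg
The window holds 5 copies of CCAAT, and 0.248% of the 27025 genes with a RefSeq promoter window of this length held as many in any of their windows. Of the 30 members with such a window, 17 held at least 1 copy (56.7%, against 37.5% of all genes), and Got1 alone held 5. AAGGTCA, the core of the site of estrogen-related receptors, occurred in the window of 1 of the 30, that of Got1 (3.33%, against 4.70% of all genes). The full site TCAAGGTCA of these receptors, the palindromic site of nuclear respiratory factor 1 and the full palindromic site of the glucocorticoid receptor, all searched on both strands, occurred in 0 of the 30, against 0.422%, 0.877% and 0.011% of all genes. AAGGTCA is part of TCAAGGTCA. The motif CCAAT, the core of the receptor site and the glucocorticoid receptor site were chosen after the values of Got1 were seen.

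The remaining genes feed the cycle, drain it or serve the shuttle, and none passed in any comparison. Got2, the mitochondrial aspartate aminotransferase, stood at 129, 126 and 129.7 FPKM in the control libraries, 145, 142 and 147 in DOX hearts and 131, 131 and 142 in TPTN hearts (log2 change 0.17, SE 0.06, limma adjusted p = 0.149 for DOX against control). Both the DOX and the TPTN libraries were all above the control libraries. Mdh1 was between 448 and 518 FPKM. Me3, the NADP-linked mitochondrial malic enzyme, stood at 3.37, 3.48 and 3.57 FPKM in the control libraries, 4.06, 3.97 and 4.24 in DOX hearts and 3.35, 3.67 and 3.71 in TPTN hearts, with DOX above both other groups. Me2, the NAD-linked one, was near the expression minimum, between 0.696 and 1.07 FPKM. Pcx, pyruvate carboxylase, which refills the cycle with oxaloacetate, was between 4.60 and 5.41 FPKM. The gene Lrfn4, at a mean of 2.17 FPKM, overlaps Pcx on the opposite strand. Glutamate dehydrogenase, Glud1, was between 22.8 and 27.0 FPKM.

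Ratios between related genes within a library do not change when a library is multiplied by 1 factor, though quantile normalization can change them. Of 12 ratios computed, those whose DOX and control libraries did not overlap are given as a description; how often other gene pairs would separate was not computed. With 3 libraries against 3, the smallest p of the two-sided exact permutation test is 0.1, so none could pass. The ratio of Got1 to Got2 was 2.16, 2.43 and 2.09 in the control libraries, 1.89, 2.00 and 1.86 in DOX hearts and 1.75, 1.67 and 1.55 in TPTN hearts. The groups did not overlap in any comparison: control was the highest and TPTN the lowest.

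The ratio of Sucla2 to Suclg2, the ATP-forming against the GTP-forming subunit, was 4.26, 4.28 and 4.03 in the control libraries, 3.62, 3.80 and 3.91 in DOX hearts and 4.19, 4.16 and 3.91 in TPTN hearts. DOX was below both other groups, which overlapped, but DOX replicate 3 and TPTN replicate 3 were nearly equal. The ratio of Mdh1 to Mdh2, cytosolic against mitochondrial, was 2.53, 2.55 and 2.43 in the control libraries, 2.25, 2.37 and 2.23 in DOX hearts and 2.44, 2.44 and 2.24 in TPTN hearts, with all DOX libraries below all control libraries and TPTN overlapping both. The ratio of Pdk2 to Pdk1 was 4.43, 4.51 and 4.71 in the control libraries, 5.50, 5.23 and 5.50 in DOX hearts and 5.17, 4.65 and 4.99 in TPTN hearts, with all DOX libraries above the rest. The ratio of Mpc1 to Mpc2 in DOX and control was the last of these, at means of 3.32 ± 0.0508 and 3.10 ± 0.124 (SD, n = 3 each).

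**Figure D3:**
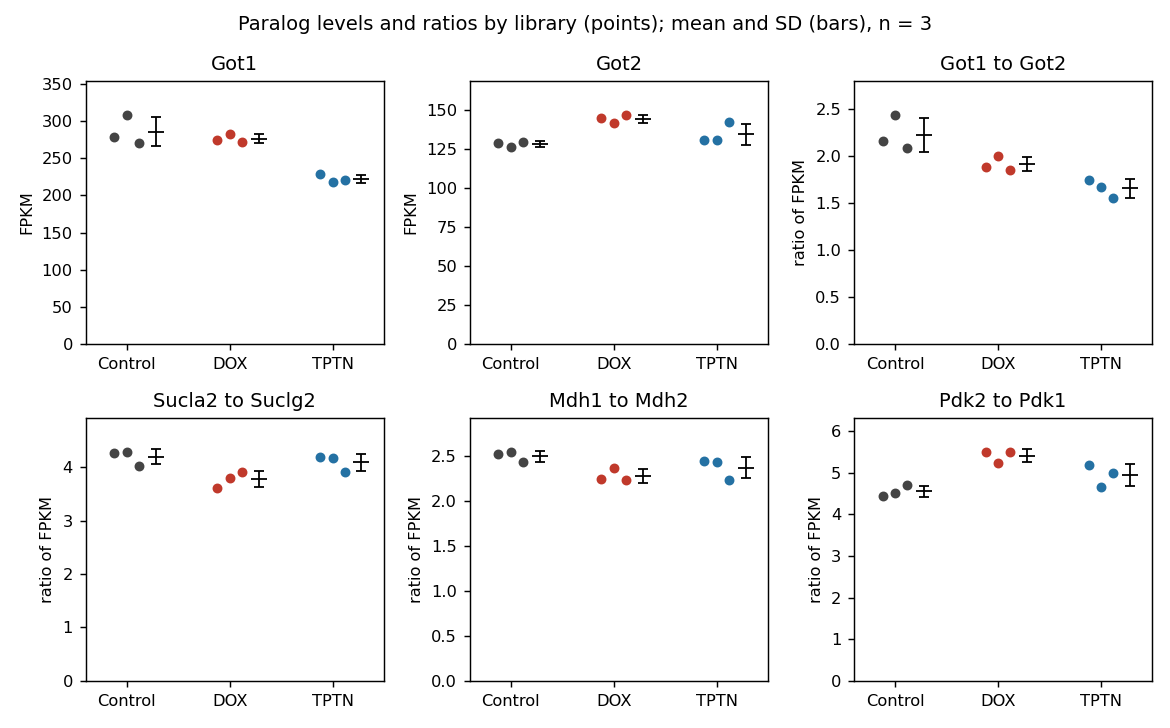
FPKM of Got1 and Got2 and the ratios of 4 gene pairs (y axes from 0) in each library (points, by group), with the mean and SD of 3 libraries beside them. The ratio of Got1 to Got2 is 2.09 to 2.43 in control and 1.55 to 1.75 in TPTN, and that of Sucla2 to Suclg2 is lowest in DOX (3.62 to 3.91).

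The summed level and the median of the set moved with the scaling, and so did the median of all genes. The summed level of the 33 genes was 3367, 3365 and 3402 FPKM in the control libraries, 3461, 3482 and 3565 in DOX hearts and 3135, 3341 and 3289 in TPTN hearts, with all DOX libraries above and all TPTN libraries below the control libraries. As a share of the FPKM sum without mitochondrially encoded genes and their 7 abundant nuclear copies, the order was another. The share was 2.02 to 2.11% in control, 1.89 to 1.94% in DOX and 1.94 to 1.97% in TPTN. Abundant members weigh most in both: Idh2 had means of 426 FPKM in control and 520 in DOX, and Got1 286 in control and 222 in TPTN. By gene, 17 estimates were positive and 16 negative in DOX against control. In TPTN against control, 11 were positive and 22 negative. The summed level of the 6 cardiomyocyte markers was higher in all DOX and all TPTN libraries than in control, but its members differed: Myl2 was higher in all of them, while Ryr2 was lower in all, at 18.6 to 27.3 FPKM in DOX and 30.5 to 31.6 in TPTN against 32.4 to 36.0 in control. The part of these in the summed level was not tested.

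The median log2 change over the 33 genes in DOX against control was 0.01, and over all genes 0.04. With median ratios the members' median became -0.04, with quantile normalization -0.13, and with mitochondrial genes and copies left out of the sum -0.14. All genes shifted too, and the members' median minus that of all genes was negative throughout, at -0.03 as deposited and -0.04, -0.12 and -0.07 in that order. In TPTN against DOX the median of the members was -0.06 (-0.0079 over all genes), and 0.07 and 0.05 under the last 2 scalings, where all genes had 0.01 and 0.085. Minus all genes it was -0.05 as deposited, then -0.05, 0.06 and -0.04. In TPTN against control it was -0.03 (0.04 over all genes) and negative under every scaling, at -0.09, -0.04 and -0.06. Minus all genes it was -0.07 as deposited, then -0.08, -0.05 and -0.08. These differences are descriptions, with no test.

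Which genes passed changed with it. With mitochondrial genes and copies left out of the sum, limma called Sucla2 (log2 change -0.36, adjusted p = 0.0193), Pdhx (-0.36, 0.0288) and Dld (-0.29, 0.0373) lower in DOX than in control, 3 of the 33 where 1.67% of all genes were. There Sucla2 (0.23, 0.0403) and Ogdh (0.26, 0.0378) were higher in TPTN than in DOX, 2 of the 33 where 4.34% of all genes were. Under quantile normalization, Sucla2 alone of the 33 passed, lower in DOX (-0.32, 0.0436; 0.536% of all genes were lower) and higher in TPTN than in DOX (0.26, 0.0478; 1.38% were higher). Sucla2 had the same direction in the deposited scaling, where it did not pass. Estimates that did not pass moved as well: without mitochondrial genes and copies in the sum, DOX against control was 0.12 for Idh2, 0.0049 for Got2 and -0.43 for Pdpr, and TPTN against DOX was -0.14 for Idh2, -0.11 for Idh3g, -0.08 for Mpc1 and 0.22 for Dld. Over all genes, calls in DOX against control were 84.8% higher as deposited, 63.6% under median ratios, 53.1% under quantile normalization and 22.6% without mitochondrial genes and copies. In TPTN against DOX they were 24.3, 34.7, 51.5 and 80.8% higher in the same order.

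**Figure D4:**
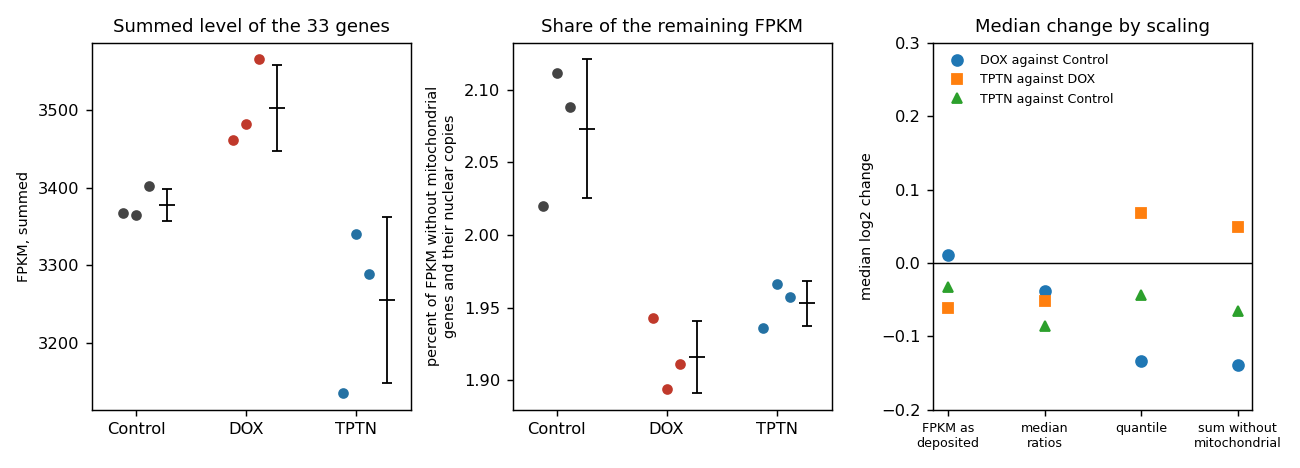
Summed FPKM of the 33 genes (left), their percent of the FPKM without mitochondrial genes and nuclear copies (middle; points are libraries, bars the mean and SD of 3; neither axis starts at 0), and the median log2 change of the 33 genes under 4 scalings (right). DOX is the highest group on the left, at 3461 to 3565 FPKM, and the lowest mean in the middle, and its median against control goes from 0.01 to -0.14.

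A list of further genes of pyruvate, citrate, glutamate and ketone metabolism was examined beside them, of which 40 had 1 record and passed the expression minimum. Limma called 0 higher and 1 lower in DOX against control (2.23% and 0.4% of all genes tested), 0 higher and 2 lower in TPTN against DOX (0.792% and 2.46%), and 0 higher and 1 lower in TPTN against control (0.336% and 0.384%). Sdha, Sdhb, Sdhc and Sdhd, the subunits of succinate dehydrogenase, did not pass. The closest was Sdhb in TPTN against DOX (limma adjusted p = 0.0562). Pdk4, a further kinase of the pyruvate dehydrogenase complex, stood at 95.5, 219 and 62.5 FPKM in the control libraries, 107, 43.7 and 54.8 in DOX hearts and 101, 95.0 and 105 in TPTN hearts, and did not pass.

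Glul, glutamine synthetase, stood at 78.2, 113 and 94.8 FPKM in the control libraries, 87.4, 94.4 and 91.5 in DOX hearts and 56.4, 51.8 and 55.9 in TPTN hearts. All TPTN libraries were below all others, with a log2 change of -0.72 against DOX (SE 0.11, limma adjusted p = 0.0155) and -0.77 against control (SE 0.11, adjusted p = 0.0161). Both passed under each of the 3 other scalings. The first was lost without DOX replicate 2 or 3 or any TPTN replicate (adjusted p of 0.0505 to 0.0569) and the second without control replicate 3 or any TPTN replicate (0.0528 to 0.0683). The second was also lost in a fit of only the groups compared (0.051), and both with no filter on low values (0.125 and 0.154).

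Oxct1, which activates ketone bodies at the expense of succinyl-CoA from the cycle, stood at 239, 246 and 239 FPKM in the control libraries, 182, 198 and 189 in DOX hearts and 211, 241 and 207 in TPTN hearts (log2 change -0.35, SE 0.07, limma adjusted p = 0.0327 for DOX against control). The DOX libraries were below all others, and control and TPTN overlapped. It passed under each scaling (-0.53 under quantile normalization) and was lost with no filter (0.151) and without any control or DOX replicate (0.0638 to 0.109). Slc25a1, the mitochondrial citrate carrier, had a mean of 1.54 ± 0.0768 FPKM in control, 2.01 ± 0.112 in DOX and 1.33 ± 0.137 in TPTN (SD, n = 3 each). It was lower in TPTN than in DOX (log2 change -0.37, SE 0.07, limma adjusted p = 0.0291). All TPTN libraries were below all DOX libraries, and with a pseudocount of 0.1 the change was -0.57. It was lost without mitochondrial genes and copies in the sum (0.0571), with the block (0.0663), in a fit of only the groups compared (0.0554), with no filter (0.149) and without DOX replicate 2 or 3 or any TPTN replicate (0.0623 to 0.0916).

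The authors' deposited table carries a p-value and a q-value per gene for a comparison its header does not name. Of the 33 genes, 6 are marked as significant in the authors' deposited table, Pdp2, Pdpr, Pdk3, Idh2, Got1 and Me3, where 9.89% of all 29237 genes are. In the authors' deposited table only Pdk3 has a q-value under 0.05 (q = 0.0285), 1 of the 33 where 3.58% of all genes do, and Got1 has a p of 0.00885 and a q of 0.0874.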

How the data were processed

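Messenger RNA of mouse heart was measured in 9 libraries, 3 a group. Per the labels' protocols, polyadenylated RNA was selected and strand-marked libraries were sequenced as paired reads. Per the submitters' processing notes, cutadapt 1.9, HISAT2 2.0.4, StringTie 1.3.4d, DESeq2, edgeR and the build GRCm38 were used, with no step named. The deposited values are FPKM per gene and library, and FPKM divides by transcript length and the library total, so that very abundant transcripts pull every other value. The authors' deposited p-value and q-value columns were used only as stated. Low FPKM values were whole multiples of the smallest unit in 10.8 to 13.5% of cases (tolerance 0.05). Values with no such unit would give a share close to this. Reads were therefore not recovered, the depth estimate is weakly founded, and no interval for counting error was possible.

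Genes with a mean of at least 0.5 FPKM over the 9 libraries (12500 genes, all 33 members among them) were tested as log2(FPKM + 1) in limma 3.58.1 (R 4.3.3), with a mean per group, a mean-variance trend and robust moderation on 6 residual degrees of freedom. P-values were adjusted by Benjamini-Hochberg over all genes tested, with a threshold of 0.05. Tables and plots used Python 3.11.15, pandas 2.3.3, numpy 2.4.6 and matplotlib 3.10.9. The procedure was tested on simulated data with independent normal noise of the fitted spread. These data held no shift in library composition and no outlying library, so the test does not cover such effects. No 2 libraries held identical values.

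Members, lists and motifs were chosen with earlier results of these data known. Values in every library are given for members past the threshold and, in each role group, for the member with the smallest p in each comparison; members named beyond that were chosen after their values were seen. Other settings were another pseudocount (0.1), no filter or a minimum of 1 FPKM, fits without robust moderation or with 2 groups only, a block for the replicate number, 3 scalings and leaving out each library. Positions are those of GENCODE M21 and promoters those of RefSeq (GRCm38.p6), found for 30 of the 33 members.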

Additional observations from a re-analysis of the deposited data

How the results depend on the processing

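Of 520 values of named genes under other settings, 461 kept their direction and side of the threshold, 49 lost and 7 gained a call, and 3 changed sign. The sign changes were of estimates that did not pass, in DOX against control: Mpc1 at -0.0156 under quantile normalization and -0.0035 without mitochondrial genes and copies in the sum, and Got1 at 0.0093 without control replicate 2 (-0.083 to 0.0093 without single libraries). Genes past the threshold numbered 329 in DOX against control, 407 in TPTN against DOX and 90 in TPTN against control. In that order, no filter on low values gave 2, 2 and 6. More genes were tested there and the spread was estimated anew with them, and the part of either was not tested. DOX against control gave 176 with only the groups compared, 173 under median ratios and 143 under quantile normalization, and TPTN against DOX gave 671 without mitochondrial genes and copies. Members past the threshold in DOX against control were 1 under quantile normalization and 3 without mitochondrial genes and copies, in place of 0. In TPTN against DOX they were 0 with no filter, 0 under median ratios and 2 without mitochondrial genes and copies, in place of 1. In TPTN against control they were 0 with no filter, with only the groups compared and under quantile normalization, in place of 1. Leaving out single libraries gave 2 to 314, 45 to 468 and 21 to 148 genes, and 0, 0 to 1 and 0 to 1 members, in the same order of comparisons. The members' median moved to -0.038, -0.13 and -0.14 in DOX against control (median ratios, quantile, without mitochondrial genes and copies), to 0.0675 and 0.0495 in TPTN against DOX (the last 2) and to -0.0856 and -0.0649 in TPTN against control (the first and the last). Without single libraries it was -0.0076 to 0.04, -0.0931 to -0.0489 and -0.06 to -0.01. The cause of these shifts was not tested. No pairing of libraries by replicate number was seen, which does not exclude one. Deviations from the group mean correlated at -0.261 to 0.023 in the 9 pairs of equal number, and 0 exceeded 0.1. Deviations within a group of 3 libraries sum to 0, which ties these correlations to each other. Of the 18 pairs of different number, 3 exceeded 0.1, each a control with a TPTN library. These were control replicate 3 with TPTN replicate 1 (0.398), control 1 with TPTN 2 (0.293) and control 2 with TPTN 3 (0.226). No fit used these pairs, and the cause was not tested. With the replicate number as a block, 170, 159 and 62 genes passed and 0 members in each comparison. Depth is uncertain, and 3 libraries a group limit what could be called.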

Other observations

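Nnt, which makes mitochondrial NADPH from NADH across the inner membrane and acts beside Idh2, was left out of the counts because the table holds it as 2 overlapping records on chromosome 13. The record ENSMUSG00000025453 (119335448 to 119408997) stood at 2.24, 85.9 and 41.7 FPKM in the control libraries, 40.2, 40.2 and 95.1 in DOX hearts and 22.5, 2.94 and 93.7 in TPTN hearts. The record ENSMUSG00000116207 (119335528 to 119408952) stood at 117, 0 and 49.6 FPKM in the control libraries, 57.6, 47.9 and 0 in DOX hearts and 30.8, 128 and 0 in TPTN hearts. All 3339 exon bases of the second record lie within exons of the first in GENCODE M21, so how reads were divided between them is uncertain, and the split did not follow the groups. The labels do not give the substrain of C57BL/6, of which C57BL/6J is known to carry a deletion within Nnt, so what these values mean for intact Nnt is not known. Their sum was 119, 85.9 and 91.3 FPKM in the control libraries, 97.9, 88.1 and 95.1 in DOX hearts and 53.3, 131 and 93.7 in TPTN hearts, with TPTN replicates 1 and 2 the lowest and the highest of the 9 libraries.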
